A study of Rattus norvegicus with 18 samples.

Results

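The hippocampus of rats killed soon after their first spontaneous seizure (Chronic, n = 5 arrays) was compared with that of rats killed 3 days after status epilepticus (D3, n = 5 arrays). The 10 arrays were taken by their labels from the 18 arrays of the series, with 1 array per rat. All 10 rats were adult male Wistar rats that had received scopolamine methylnitrate and then pilocarpine, a muscarinic cholinergic agonist that induces status epilepticus (SE), which was stopped with diazepam. The Chronic rats were taken within hours of the first spontaneous seizure, which came more than a week after SE and on different days in different rats, so that the time after SE and the seizure itself differ together between the groups and cannot be told apart. The other arrays were 5 from rats 7 days after SE (D7) and 3 from saline-treated rats (Control). The Control arrays were 1 each of the 3-day, the 7-day and the immediate saline controls, pooled here as 1 group, and the values of D7 and Control are given only as levels, with no test. Whole hippocampi were used, so that fewer cells of a type and less RNA per cell cannot be told apart in any of these values.

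In the pilocarpine model, SE is followed by a latent period in which neurons die, glia divide and become reactive, and the tissue is remodelled before spontaneous seizures begin. Microglia and astrocytes enter the cell cycle in the days after the insult, and progenitors of the dentate gyrus also divide. Dividing cells switch on genes of DNA replication in S phase and genes of chromosome segregation in G2 and M phase.

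Each array carried 33849 gene probes, of which 33800 could be tested. The values are log2 normalized intensities on a scale where the median spot of an array lies near 0, and a probe's level is compared only with itself on other arrays. Between 66.0% and 76.0% of the spots were flagged good at D3 and between 66.8% and 73.8% in Chronic. Arrays correlated at 0.960 to 0.970 within D3, 0.955 to 0.967 within Chronic and 0.947 to 0.967 between the groups. The spread between rats was larger in Chronic, with a median SD of 0.289 against 0.212 at D3. Of 12 genes of principal neurons, 10 were flagged good on every array of D3 and Chronic, while Nefh was on 3 of the 10 arrays and Snap25 on 1. Genes of the choroid plexus, a tissue that adjoins the hippocampus, varied widely within every group (mean level of 18 genes from -1.19 to 1.60 at D3, -0.74 to 2.56 in Chronic and -0.91 to 1.51 in Control).

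Genes of cell division were prominent among the falls from D3 to Chronic. Of the 15 largest falls, 8 were genes of the mitosis or DNA replication lists. A probe was called where limma's adjusted p was under 0.05 and the change was at least 2-fold. Of the 33800 probes, 185 (0.547%) were called lower in Chronic and 66 (0.195%) higher, against 193 lower and 35 higher with quantile normalization. With 1 probe for each of 12331 named genes, 123 genes (0.997%) were lower and 15 (0.122%) higher, together 138 (1.12%). Of the 123 lower genes, 37 were in the lists of mitosis or DNA replication genes and 67 were in none of the lists. Several of those 67 are also known for cell division, among them the centromere gene Cenpt (-2.71 ± 0.40), the kinetochore gene Knstrn (at least 3.81-fold, since all its Chronic spots were flagged low), Pclaf, whose product binds the sliding clamp (-2.58 ± 0.32), and Pimreg (-3.25 ± 0.49 with 4 Chronic arrays, since 1 had no value, and with another probe at -1.85 not called). These and a gene listed as Igsf7 l1 (-2.66 ± 0.54) were among the 15 largest falls. Most Chronic spots of Pimreg and Igsf7 l1 were flagged low, with 1 and 2 flagged good. Aspm (-2.20), Cenpa (at least 2.20-fold) and Ska1 (-2.24), named after their values were seen, also act in cell division.

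**Figure D1:**
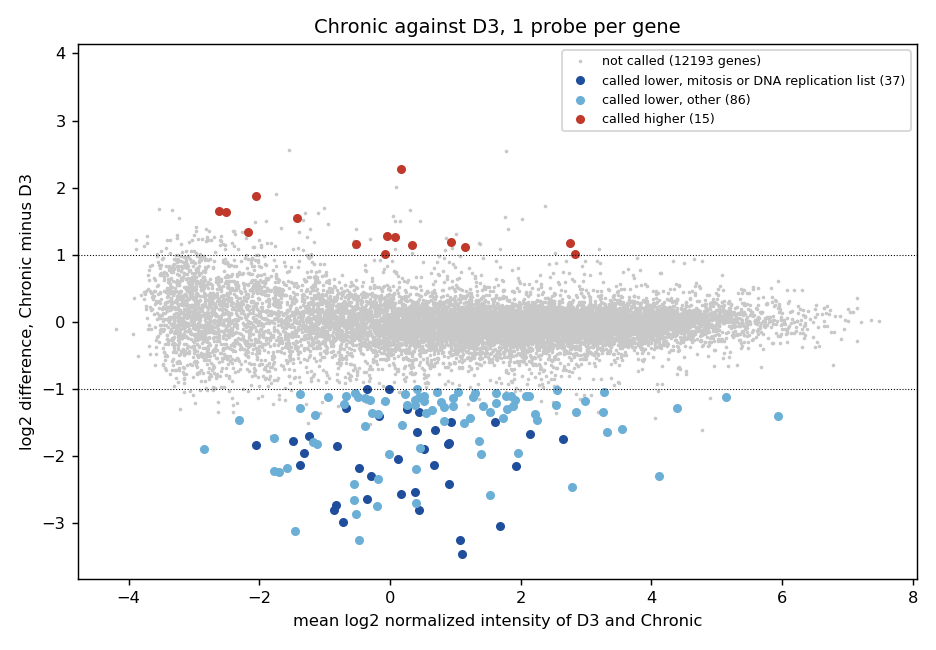
Log2 difference between Chronic and D3 (vertical axis) against the mean log2 normalized intensity of both groups (horizontal axis), 1 point per gene. The dotted lines mark 2-fold. The 123 called falls reach -3.47 and lie at all intensities, and the 15 called rises reach 2.28.

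Of 42 measured mitosis genes, 28 were called lower and none higher, with a median log2 difference of -1.73 against -0.03 over all genes tested. Pbk, a mitotic kinase, showed the largest fall. Its log2 intensity was 2.92, 2.95, 2.69, 2.61 and 3.03 on D3 replicates 11 to 15 and -0.79, -0.75, -0.38, -1.04 and -0.19 on Chronic replicates 41 to 45, and per-array values below keep this order. Every Chronic array lay more than 2 log2 units under every D3 array, and the difference was -3.47 ± 0.31 (SE, limma adjusted p = 1.11e-05), or 11.1-fold. Cdk1, the kinase that drives entry into mitosis, was at 3.01, 3.09, 2.26, 2.44 and 2.65 at D3 and at -0.51, -0.54, -0.65, -0.89 and -0.19 in Chronic. The groups were again far apart, with a difference of -3.25 ± 0.33 (limma adjusted p = 2.27e-05), and another Cdk1 probe was called with -3.08. Top2a, which untangles chromosomes before they separate, was at 3.48, 3.34, 2.90, 2.99 and 3.36 at D3 and at 0.27, 0.03, 0.07, -0.38 and 0.80 in Chronic (-3.05 ± 0.37, limma adjusted p = 8.53e-05). Mki67, the gene of the proliferation marker Ki-67, was at 2.16, 1.90, 1.41, 1.80 and 1.97 at D3 and at -0.60, -1.24, -1.24, -1.35 and -0.36 in Chronic (-2.81 ± 0.35, limma adjusted p = 0.000115). For both genes the highest Chronic array, replicate 45, was still below the lowest D3 array.

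Other mitosis genes called lower were Cep55 and Kif20a, which act in the final separation of daughter cells, the cyclin gene Ccna2 (-2.57), the securin gene Pttg1 (-2.55), Ube2c (-2.42) and Cdc20 (-2.05), which both serve the anaphase-promoting complex, and the survivin gene Birc5 (-2.15). These were named after their values were seen, except Cep55 and Kif20a. All Chronic spots of Cep55 were flagged low, which makes its fall at least 5.60-fold on this probe. Its other probe was called with a smaller fall (-1.23). Kif20a fell by 2.64 ± 0.31 on the log2 scale (limma adjusted p = 8.53e-05). The 14 mitosis genes that were not called ranged from -0.98 (Ckap2) to 0.82 (Ttk), and Ttk and Nek2 were flagged low on every array of both groups. The 14 included the kinase genes Plk1 (-0.30) and Aurkb (-0.53) and the transcription factor gene Foxm1 (-0.02), while Aurka (-0.72), Cks1b (-0.55) and Incenp (-0.89) had an adjusted p under 0.05 without reaching 2-fold. The mean level of the 42 genes lay between 0.79 and 1.20 on the D3 arrays and between -0.62 and -0.35 on the Chronic arrays, near the Control arrays (-0.75 to -0.52). On the D7 arrays it ran from -0.35 to 0.76. With any of the 10 arrays left out 27 or 28 of these genes were called, and 18 where only spots flagged good were used.

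**Figure D2:**
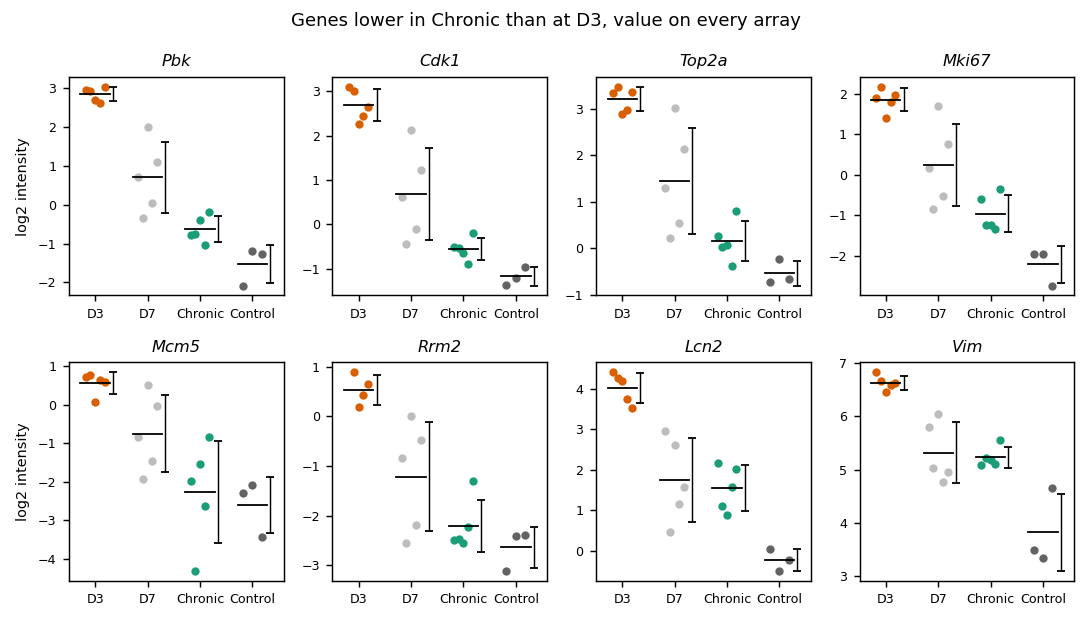
Log2 normalized intensity (vertical axis) of 8 genes on every array of D3, D7, Chronic and Control, with 1 point per rat, a bar at the group mean and an error bar of 1 SD. For all 8 genes the D3 arrays lie above the Chronic arrays without overlap. Mcm5 has 1 Chronic array far below the others, at -4.31.

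Of 27 measured DNA replication genes, 9 were called lower and none higher, with a median of -0.66, and 26 of the 27 had a difference below 0. Mcm5, a subunit of the replicative helicase, was at 0.77, 0.71, 0.07, 0.62 and 0.59 at D3 and at -1.97, -4.31, -1.53, -2.63 and -0.84 in Chronic (-2.81 ± 0.51, limma adjusted p = 0.00425). The Chronic arrays were widely spread but all lay under the D3 arrays, and another Mcm5 probe was called with -2.82. Rrm2, the small subunit of ribonucleotide reductase, was at 0.88, 0.18, 0.42 and 0.65 on the 4 D3 arrays where it was measured and at -2.48, -2.46, -2.54, -2.22 and -1.29 in Chronic (-2.73 ± 0.42, limma adjusted p = 0.00119). Mcm10 (-1.83, at least 1.62-fold since all Chronic spots were flagged low), the thymidine kinase gene Tk1 (-1.78), Mcm6 (-1.50) and Gins1 (-1.50) were also called, as were Uhrf1, Prim1 and Cdc45. The other probes of Tk1 (-0.79) and Mcm6 (-0.31) were not called. Of the 5 Chronic spots, only 1 was flagged good for Rrm2, 1 for Tk1 and 2 for Mcm5. The rest were flagged low, which makes the sizes of these falls uncertain. Another 8 genes had an adjusted p under 0.05 without reaching 2-fold, among them the sliding clamp gene Pcna (-0.46) and the ligase gene Lig1 (-0.66). The count was 7 to 9 with any array left out and 4 where only spots flagged good were used.

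Genes of G2 and M phase commonly carry a CCAAT box, which NF-Y binds, and a CHR element near their start. Promoters are shown for 4 mitosis genes with both kinds of letters and for 2 replication genes without the CHR, chosen after their values were seen. Each is the 250 bases before the annotated start in RefSeq, build GRCr8, read 5′ to 3′ on the strand of the gene. Capitals mark CCAAT (or ATTGG on the other strand) and the CHR letters TTTGAA or TTCGAA (or TTCAAA on the other strand), and adjoining matches run together. The positions are Cdk1 at chr20:19265043-19265292 on the plus strand, Top2a at chr10:84473094-84473343 on the minus strand, Cdc20 at chr5:137255800-137256049 on the minus strand, Pttg1 at chr10:28406327-28406576 on the minus strand, Mcm5 at chr19:13488563-13488812 on the plus strand and Mcm6 at chr13:42404353-42404602 on the minus strand.
Cdk1: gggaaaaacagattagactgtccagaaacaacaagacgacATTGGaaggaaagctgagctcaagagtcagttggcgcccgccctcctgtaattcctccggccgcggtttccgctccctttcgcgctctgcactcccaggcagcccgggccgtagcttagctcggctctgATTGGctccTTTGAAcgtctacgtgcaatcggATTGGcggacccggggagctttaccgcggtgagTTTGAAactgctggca
Top2a: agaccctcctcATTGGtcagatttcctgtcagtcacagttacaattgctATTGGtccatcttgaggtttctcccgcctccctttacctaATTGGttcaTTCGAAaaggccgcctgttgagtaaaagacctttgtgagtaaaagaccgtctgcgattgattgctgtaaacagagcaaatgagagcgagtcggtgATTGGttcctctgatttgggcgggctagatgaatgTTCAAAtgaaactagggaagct
Cdc20: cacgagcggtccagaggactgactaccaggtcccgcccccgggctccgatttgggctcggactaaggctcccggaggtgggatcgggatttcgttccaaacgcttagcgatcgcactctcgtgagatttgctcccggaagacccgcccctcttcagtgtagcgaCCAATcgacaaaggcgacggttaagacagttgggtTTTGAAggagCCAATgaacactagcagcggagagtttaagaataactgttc
Pttg1: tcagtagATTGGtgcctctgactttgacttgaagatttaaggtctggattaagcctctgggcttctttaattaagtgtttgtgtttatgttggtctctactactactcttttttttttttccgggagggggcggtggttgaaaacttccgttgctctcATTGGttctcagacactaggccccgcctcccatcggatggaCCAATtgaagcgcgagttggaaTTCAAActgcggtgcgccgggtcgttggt
Mcm5: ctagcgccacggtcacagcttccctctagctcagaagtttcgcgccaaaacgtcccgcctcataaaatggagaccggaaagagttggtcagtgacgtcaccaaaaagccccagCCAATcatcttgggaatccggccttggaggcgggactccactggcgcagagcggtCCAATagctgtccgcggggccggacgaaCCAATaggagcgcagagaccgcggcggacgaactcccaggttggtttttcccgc
Mcm6: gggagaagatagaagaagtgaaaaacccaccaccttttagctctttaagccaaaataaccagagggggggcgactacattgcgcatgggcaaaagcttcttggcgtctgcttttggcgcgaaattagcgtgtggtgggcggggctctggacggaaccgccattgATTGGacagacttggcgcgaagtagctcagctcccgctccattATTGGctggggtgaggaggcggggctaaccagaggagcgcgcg

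A promoter was found for 24 of the 28 mitosis genes called lower and for 8 of the 9 replication genes. The CHR letters stood in 16 of the 24 (66.7%) and in 0 of the 8, against 12.4% of the promoters of 10098 genes tested. CCAAT stood in 21 of the 24 (87.5%) and in 6 of the 8 (75%), against 34.9%. Both stood in 14 of the 24 (58.3%), against 4.49%. The letters also stood in promoters of genes outside the mitosis list. The other genes called lower are a mixed set, since they include genes known for cell division such as Cenpt and Knstrn. Of the 69 promoters found for the other genes called lower, 26.1% held the CHR letters, 43.5% CCAAT and 17.4% both, and of the 7 found for the genes called higher, 3 (42.9%) held the CHR letters, 4 (57.1%) CCAAT and 2 (28.6%) both. A match is a description of the letters in this window and not a bound site.

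The inhibitor gene Cdkn2c, whose product p18 holds back the cyclin D kinases, fell together with these genes. It was at 3.12, 3.32, 2.88, 3.02 and 3.46 at D3 and at 1.68, 1.99, 2.06, 1.75 and 2.09 in Chronic (-1.25 ± 0.14, limma adjusted p = 6.33e-05). Another of its probes was called with -1.25, while a dimmer probe gave 0.39 and was not called. None of the other 13 measured genes of cell cycle inhibitors and G1 cyclins was called.

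Among genes of reactive astrocytes, which raise filament and acute-phase genes after injury, 5 of 27 were called lower and none higher, with a list median of -0.22. Lcn2, which encodes the iron-trafficking protein lipocalin 2, was at 4.26, 4.40, 4.19, 3.74 and 3.53 at D3 and at 2.18, 1.11, 0.89, 1.57 and 2.03 in Chronic (-2.47 ± 0.36, limma adjusted p = 0.000638). The groups did not overlap. Vim, the gene of the intermediate filament vimentin, was at 6.67, 6.82, 6.46, 6.60 and 6.62 at D3 and at 5.08, 5.22, 5.18, 5.11 and 5.56 in Chronic (-1.40 ± 0.24, limma adjusted p = 0.00214). Nes, the gene of nestin, a filament of progenitors and reactive astrocytes, was at 2.17, 2.50, 1.62, 2.04 and 1.91 at D3 and at 0.63, 0.88, 0.86, 0.68 and 0.88 in Chronic (-1.26 ± 0.17, limma adjusted p = 0.000181), with another probe called at -1.23. Gfap, the main filament gene of astrocytes, was not called (5.56 ± 0.15 at D3 and 5.17 ± 0.39 in Chronic, SD, n = 5 each, limma adjusted p = 0.179) and its Control mean was 3.42. Chronic means of Lcn2 and Vim were 1.77 and 1.41 above their Control means.

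The extracellular matrix held 5 called falls among 43 measured genes and no rise, with a median of -0.36. The fibulin gene Fbln2 was at 5.05, 5.55, 5.14, 5.19 and 5.40 at D3 and at 2.34, 2.40, 2.38, 2.62 and 5.09 in Chronic (-2.30 ± 0.36, limma adjusted p = 0.00118). Chronic replicate 45 stood among the D3 arrays while the other 4 lay near the Control mean of 2.32. Bgn, the gene of the proteoglycan biglycan, was at 1.25, 2.79, 2.58, 2.26 and 3.00 at D3 and at 0.12, 0.15, 0.95 and 0.43 on the 4 Chronic arrays where it was measured (-1.97 ± 0.27, limma adjusted p = 0.000367). The periostin gene Postn (-1.89), the fibronectin gene Fn1 (-1.19) and Fbln5 (-1.13) were also called. Without D3 replicate 12, Postn (-1.63, adjusted p = 0.0525) and Fbln5 (-0.97) lost the call, which left 3 calls in the list, and without Chronic replicate 43 Fbln5 did, just under 2-fold. Of the 3 Fn1 probes, 1 other was called with -1.72 and the dimmest gave 0.10. Of 13 hyaluronan and perineuronal net genes, 3 were called lower: Cd44, the hyaluronan receptor gene (-1.47), the link protein gene Hapln1 (-1.18) and the versican gene Vcan (-1.11 ± 0.15), while the list median was 0.06. Hapln1 was just under 2-fold without Chronic replicate 41 (-0.96). Of the genes of mural cells and meninges, Tagln was called (-1.65, adjusted p = 0.0202), and the call was lost without D3 replicate 12 (-1.47, adjusted p = 0.0722), D3 replicate 14 (-1.60) or Chronic replicate 42 (-1.56). Igfbp3 of the IGF system (-1.06) lost its call without any of 6 arrays, with adjusted p from 0.0579 to 0.0851 there, and its other probe was not called (-0.60).

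Genes of phagocytes fell in part. Of 22 genes of activated phagocytes 3 were called lower and none higher, with a median of -0.38, and of 17 genes of microglial identity none was called, with a median of -0.05. Lyz2, the lysozyme gene of myeloid cells, was at 2.44, 3.34, 2.76, 2.90 and 3.23 at D3 and at 1.19, 1.06, 0.84, 0.32 and 1.46 in Chronic (-1.96 ± 0.30, limma adjusted p = 0.000807), with no overlap. Lgals3 (-1.35, adjusted p = 0.0484) and the lipid droplet gene Plin2 (-1.02) were at the edge of the call. Lgals3 lost it without any array other than Chronic replicate 45 (adjusted p from 0.0534 to 0.123). The list then held 1 or 2 calls. Plin2 lost its call, just under 2-fold, without any of D3 replicates 12, 14 and 15 or Chronic replicates 41 to 44. Outside the lists, the receptor genes of leukocytes Lilrb4 (-2.87 ± 0.46) and Cd300c2 (-2.75 ± 0.52) were among the 15 largest falls. Of their 5 Chronic spots, 1 and 3 were flagged good. The lists of complement, MHC class I, MHC class II, cytokines, chemokines and T cells held no call with all arrays, and their medians lay between -0.23 and -0.05. Over all genes 1.12% were called, a share at which these lists and that of microglial identity would hold few calls or none. Of the 18 T cell genes, 3 had no good spot in either group, nor had Trem2 of the microglial identity list. Among the chemokines and their receptors, 3 were called lower without Chronic replicate 45, Ccl7 (-1.63, adjusted p = 0.0188), Ccl6 (-1.36, adjusted p = 0.0367) and Ccl2 (-1.09, adjusted p = 0.0227), and Cxcr4 (-1.01) without Chronic replicate 42. Ccl6 was also called where only the 10 arrays of both groups were fitted (adjusted p = 0.0389).

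**Figure D3:**
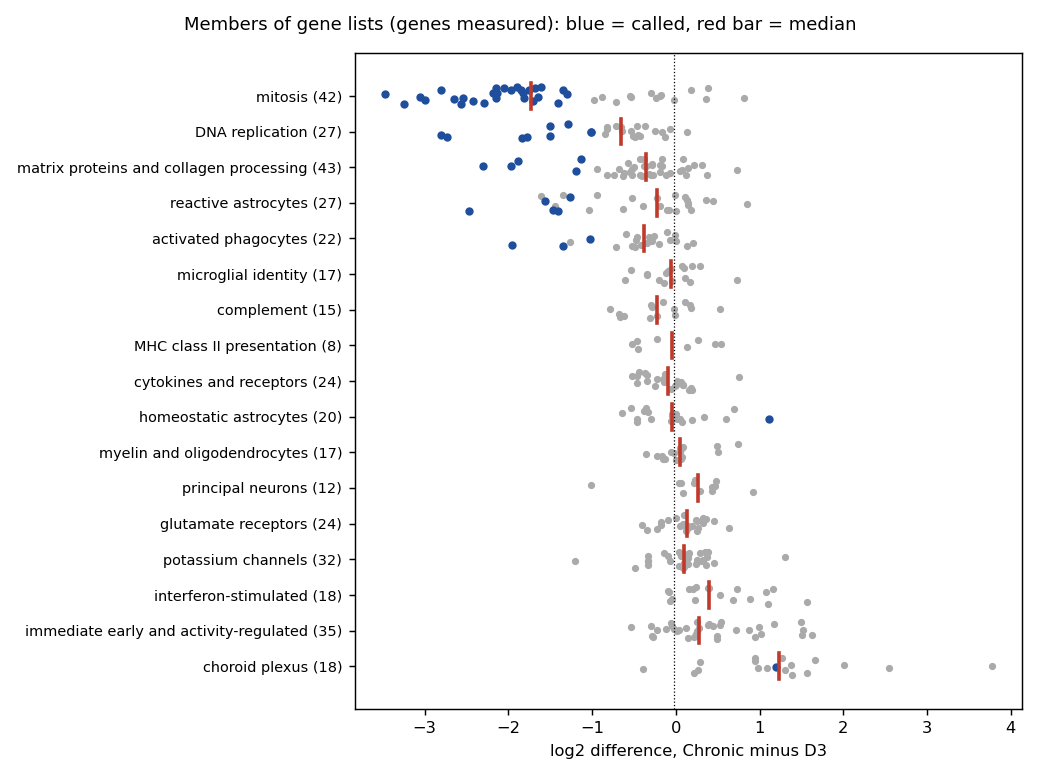
Log2 difference between Chronic and D3 (horizontal axis) for each measured gene of 17 lists, 1 point per gene, blue where called and grey where not. The red bar is the list median and the dotted line the median of all genes. Mitosis genes lie farthest to the left (median -1.73), followed by DNA replication (-0.66), and the choroid plexus genes lie farthest to the right (1.23) with 1 call.

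Chronic replicate 45 stood apart for many of the genes that fell. It was the highest of the 5 Chronic arrays for 70 of the 123 lower genes, against 10 to 17 for each of the other 4. It lay at or above the lowest D3 array for 9 of them, which were Bcl2l14, Calcb, Cd44, Fbln2, Gldn, Igfbp3, Lgals3, Plin2 and S100a10. Cd44 was at 3.01, 3.12, 2.60, 3.22 and 2.95 at D3 and at 1.06, 1.11, 1.18, 1.07 and 3.15 in Chronic. S100a10, the gene of an annexin partner, was at 0.29, 0.95, -0.12, 0.59 and 0.29 at D3 and at -1.06, -1.90, -1.33, -1.88 and 0.37 in Chronic. Without Chronic replicate 45 the differences were -2.83 for Fbln2, -1.88 for Cd44 and -1.94 for S100a10. S100a10 lost its call without D3 replicate 12 (-1.42, adjusted p = 0.0712), D3 replicate 14 (-1.51), Chronic replicate 42 (-1.37) or Chronic replicate 44 (-1.38).

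Some genes that were not called with all arrays were called without Chronic replicate 45. The small heat shock protein gene Hspb1 was at 5.63, 6.07, 4.99, 5.79 and 5.43 at D3 and at 3.93, 3.47, 2.73, 3.50 and 6.22 in Chronic (-1.61, adjusted p = 0.0615, and -2.17, adjusted p = 0.000345, without it). The metalloproteinase inhibitor gene Timp1 was at 4.77, 4.98, 4.52, 4.88 and 4.75 at D3 and at 3.54, 2.39, 1.68, 3.70 and 5.39 in Chronic (-1.44, adjusted p = 0.123, and -1.95, adjusted p = 0.00656, without it). Replicate 45 was above every D3 array for both genes. In all, 154 genes were lower without this array, 36 of which were not called with it, and the count in the reactive astrocyte list rose from 5 to 10. The mitosis count was 27 without it. The mean level of the reactive astrocyte list on replicate 45 was 2.17, within the D3 range (1.88 to 2.21), while the other Chronic arrays lay between 1.09 and 1.63.

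**Figure D4:**
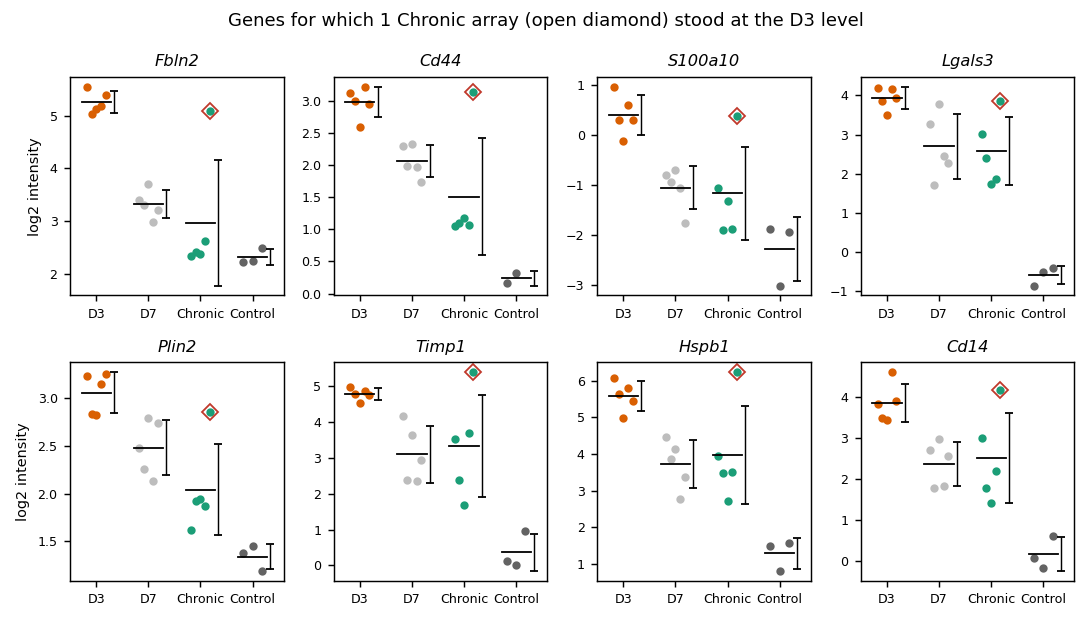
Log2 normalized intensity (vertical axis) of 8 genes on every array, with 1 point per rat, a bar at the group mean and an error bar of 1 SD. The open diamond marks Chronic replicate 45, which stands at 5.09 for Fbln2 and 3.15 for Cd44, within the D3 arrays, while the other 4 Chronic arrays lie between 2.34 and 2.62 and between 1.06 and 1.18.

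The rises were few and mostly small. Prox1, the transcription factor gene that marks dentate granule cells, was at -0.27, -0.99, -0.40, -0.51 and -0.63 at D3 and at 0.79, 0.70, 0.61, 0.46 and 0.97 in Chronic (1.27 ± 0.15, limma adjusted p = 7.97e-05). The groups did not overlap, and the D7 and Control means were -0.20 and 0.20. None of the other 14 measured genes of granule cells and hippocampal subfields was called, and the list median was 0.11. Agt, the angiotensinogen gene, which astrocytes make in brain, was at 0.37, 0.46, 0.73, 0.74 and 0.66 at D3 and at 1.81, 1.49, 2.34, 1.61 and 1.27 in Chronic (1.11 ± 0.18, limma adjusted p = 0.00142), and 0.95 without Chronic replicate 43, under 2-fold. It was the only call among 20 genes of resting astrocytes, and its D7 and Control means of 1.75 and 1.92 were like the Chronic mean of 1.70. Usf3, a transcription factor gene, was at 2.48, 2.30, 2.37, 2.29 and 2.21 at D3 and at 3.30, 3.37, 3.36, 3.36 and 3.29 in Chronic (1.01 ± 0.12, limma adjusted p = 6.05e-05). This difference was the edge of 2-fold, and Usf3 fell just below it without any of 5 arrays (0.98 or more).

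Lbhd2 had the largest rise. It was at -0.50, -1.03, -1.74, -0.85 and -0.71 at D3 and at 2.25, 2.06, 1.23, 0.37 and 0.63 in Chronic (2.28 ± 0.50, limma adjusted p = 0.0156), with another probe called at 2.52. Its D7 and Control means, 1.31 and 1.33, were like the Chronic mean of 1.31, so that D3 was the group that stood apart. The call was lost without Chronic replicate 41 (2.04, adjusted p = 0.0505) or Chronic replicate 42 (2.09, adjusted p = 0.0523). Tac3, the gene of the neurokinin B precursor, was at 1.87, 1.81, 2.47, 2.24 and 2.47 at D3 and at 3.77, 2.94, 2.36, 3.73 and 3.95 in Chronic (1.18 ± 0.26, limma adjusted p = 0.0158). Chronic replicate 43 lay within the D3 arrays, the D7 and Control means were 1.72 and 1.64, and the call was lost without D3 replicate 12 (1.08, adjusted p = 0.0561) or Chronic replicate 41 (1.07, adjusted p = 0.0505). It was the only call among 17 neuropeptide precursor genes with all arrays. The proenkephalin gene Penk was called lower without Chronic replicate 45 (-1.44, adjusted p = 0.00108, against -1.03, adjusted p = 0.108, with it), and Cartpt was called higher without Chronic replicate 42.

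Among the other called rises were those of the relaxin 3 gene Rln3 (1.16), the orexin receptor gene Hcrtr1 (1.28, with both probes called), the stanniocalcin gene Stc1 (1.14, while its other, dim probe gave -0.30), the cadherin gene Cdh16 (1.01), Ecrg4 (1.19), Spt1, Prok1, Fam83f and Tnmd. For the last 4 all D3 spots were flagged low, and the rises were at least 1.36-, 1.19-, 1.11- and 1.70-fold. Of their 5 Chronic spots, 2, 2, 1 and 4 were flagged good, so that most spots of Spt1, Prok1 and Fam83f were dim in both groups. The calls of Spt1 and Fam83f held with any array left out, but the other Fam83f probe was not called (0.42, adjusted p = 0.741) and the methods' t-test after Benjamini-Hochberg lost Fam83f (adjusted p = 0.0956). That test kept 5 of the 15 rises and 92 of the 123 falls. The falls it lost included Mcm5 (adjusted p = 0.0682), Cd300c2 (0.0780), Fbln2 (0.0858), Bgn (0.0651), Fn1 (0.0710) and Cd44 (0.139). Each of the other rises named here was lost without at least 1 array. Under 2-fold were Rln3 without Chronic replicate 45 (0.91), Stc1 without Chronic replicate 41 (0.94) or 44 (0.98) and Cdh16 without D3 replicates 12 or 15 or Chronic replicates 42 or 45 (0.85 to 0.98). The adjusted p of Hcrtr1 was 0.0547 to 0.0909 without D3 replicates 11 or 12 or Chronic replicates 41 or 45, and that of Ecrg4 0.0554 to 0.0863 without D3 replicates 12, 14 or 15 or Chronic replicates 41 or 42. It was 0.0575 to 0.0931 for Prok1 without D3 replicates 13 to 15 or Chronic replicates 41, 42 or 44 and 0.0536 to 0.0808 for Tnmd without D3 replicates 11 to 13 or Chronic replicates 41 to 44. Ecrg4 was the only call of the choroid plexus list with all arrays (Ttr was also called without Chronic replicate 43), whose median difference was 1.23 and whose mean level overlapped widely between the groups. The part of that list in the Ecrg4 difference was not tested. Of the 66 probes called higher, 44 have no gene name here. Of the 15 genes called higher, 11 had no overlap between the groups (2.08% of all genes had Chronic above D3 without overlap), as had 110 of the 123 called lower (5.16% below). The calls were made on these same arrays, so that a high share without overlap is not separate support for them.

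**Figure D5:**
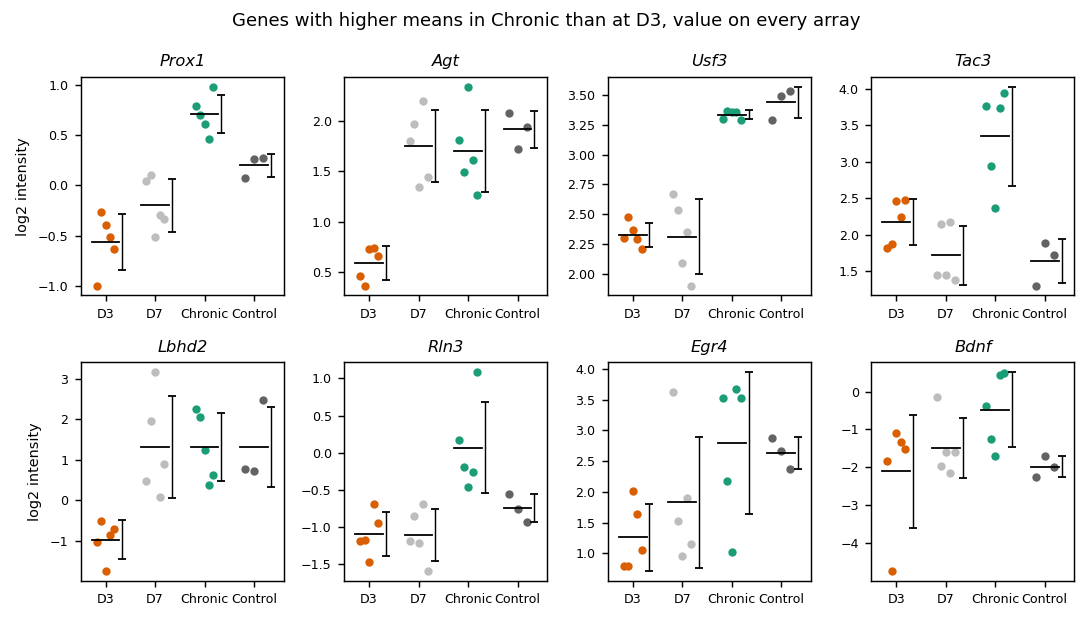
Log2 normalized intensity (vertical axis) of 8 genes on every array, with 1 point per rat, a bar at the group mean and an error bar of 1 SD. Prox1, Agt, Usf3, Lbhd2 and Rln3 do not overlap between D3 and Chronic. Egr4 and Bdnf, which were not called, lie high on 3 Chronic arrays and within the D3 range on the lowest, at 1.03 and -1.71.

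Genes switched on by neuronal activity varied widely among the Chronic rats. Of 35 measured immediate early and activity-regulated genes none was called at 2-fold, with a median of 0.28, and only Nr4a3 (0.95) had an adjusted p under 0.05. The mean level of the list was 2.18, 2.27 and 2.52 on Chronic replicates 41, 44 and 45 and 1.60 and 1.08 on replicates 42 and 43, against 1.28 to 1.73 at D3 and 1.41 to 1.50 in Control. High levels were not particular to Chronic, since D7 replicate 31 was at 2.39, with the other D7 arrays from 1.11 to 1.45. Egr4, a transcription factor gene, was at 0.80, 0.79, 2.02, 1.65 and 1.05 at D3 and at 3.52, 2.18, 1.03, 3.67 and 3.53 in Chronic (1.53 ± 0.48, limma adjusted p = 0.101), and 1.97 without Chronic replicate 43, where it was called (adjusted p = 0.0166). Without that array 4 genes of the list were called higher, also Fosb (1.88), Egr2 (1.86) and Nr4a3 (1.04), and Nr4a3 was called without D3 replicate 13 or 15 too. The neurotrophin gene Bdnf was at -4.73, -1.83, -1.10, -1.34 and -1.53 at D3 and at -0.38, -1.26, -1.71, 0.45 and 0.48 in Chronic (1.62 ± 0.58, limma adjusted p = 0.150). The -4.73, on D3 replicate 11, was the floor to which that array's lowest spots were raised, and it enlarges the difference. Inhba, the gene of the activin A subunit, was at 0.60, 0.95, 0.59, 1.30 and 0.45 at D3 and at 2.36, 0.95, -0.01, 3.09 and 3.40 in Chronic (1.18 ± 0.55, limma adjusted p = 0.286). The same 3 Chronic arrays were the highest of the Chronic arrays for all of these genes. D7 replicate 31 was the highest D7 array for Egr4 (3.63), Bdnf (-0.15) and Inhba (2.59).

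The 18 interferon-stimulated genes held no call in the fit of all 18 arrays, with a median of 0.39. Among the Chronic and D3 arrays their mean level was highest on Chronic replicate 41 (1.87, against 0.58 to 1.15 on the other Chronic arrays and 0.45 to 0.76 at D3). On the D7 arrays it ran from 0.32 to 3.22, with the highest on replicate 35. Ifit3 had the largest difference (1.57 ± 0.60, limma adjusted p = 0.180). It did not overlap between the groups, with D3 arrays at -0.61 or lower and Chronic arrays at 0.32 or higher, and it was called where only the 10 arrays were fitted (SE 0.25, adjusted p = 0.00479). In the fit of all arrays the spread also held D7 replicate 35, at 4.07. Red cell genes (4 measured, median 0.87) also held no call.

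Few neuronal genes were called. Over all genes 138 of 12331 (1.12%) were called, a share at which lists of these sizes hold few calls or none. Of 12 measured genes of principal neurons none was called and 11 were above 0 (median 0.26), with Camk2a, the kinase gene of excitatory neurons, at 0.93 ± 0.25 (limma adjusted p = 0.0501). The Chronic mean of Camk2a was 5.12, the D3 mean 4.19 and the Control mean 5.33. Genes of glutamate receptors (24 measured, median 0.13), GABA receptors and chloride transport (16, 0.14), potassium channels (32, 0.10), sodium, calcium and HCN channels (29, 0.04), synapses (18, 0.07), interneurons (17, -0.08), oxidative phosphorylation (23, 0.04), sterol synthesis (22, 0.02) and myelin (17, 0.05) held no call. Matrix proteases (21, -0.11), heat shock (24, -0.18), neutrophils and monocytes (11, 0.00), endothelium (23, 0.08) and the TGF-beta, activin and BMP genes (36, -0.15) held none either with all arrays. Of the 24 glutamate receptor genes, 3 had no good spot in either group, among them Gria1 and Grik3. Without Chronic replicate 45, Timp1 and Plaur (-1.57, adjusted p = 0.00465) of the matrix proteases, Hspb1 of the heat shock list and Cd14 (-1.76, adjusted p = 0.00266) of the monocyte list were called lower. Bmp4 (-1.05, adjusted p = 0.0674) was called without D3 replicate 11 (adjusted p = 0.0429), Chronic replicate 43 (adjusted p = 0.0492) or Chronic replicate 44 (adjusted p = 0.0213), and the interneuron gene Calb2 was called higher without Chronic replicate 44 (1.01, adjusted p = 0.0481). The voltage-gated sodium channel subunit gene Scn4b had 0.61 (adjusted p = 0.0746) and the potassium channel gene Kcnt1 -1.20 (adjusted p = 0.351), with Chronic arrays from -0.28 to 3.43. In neurogenesis (18 measured, median -0.05), oligodendrocyte precursors (9, 0.05) and neighbouring brain regions (11, 0.26), the calls were Nes, Vcan and Rorb (-1.01). Rorb was just under 2-fold without any of 4 arrays (-0.93 to -0.98).

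Of 11 genes that the study singled out, 3 were called, Cdk1, Nes and Cdkn2c. The study compared each time with saline controls, which is a different comparison from Chronic against D3. By real-time PCR it also measured Cdk1, Nes, Cdkn2c, Tgfb1, Igf1 and Gfap. The study chose the 11 genes on these samples, so that they are not independent evidence. The genes of the 11 that were not called here were Tgfb1 (-0.13), Igf1 (-0.05), Gfap (-0.39), Runx1 (0.95), Ldb2 (-0.09), Bmp3 (0.12), Map2k1 (0.07) and Foxd3. Foxd3 was flagged low on every array of both groups. Of 8 reference genes, none was called, with differences from -0.64 (Rpl13a) to 0.20 (Hprt1).

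Set beside the other arrays, the Chronic mean of 106 of the 123 lower genes was within 1 log2 unit of the Control mean, and for 16 it was at least 1 above it. Those 16 included Lgals3 (3.17 above), Lcn2 (1.77), Vim (1.41) and Cd44 (1.27) and, of the mitosis genes, Mki67 (1.26). The share of all genes within 1 log2 unit of Control was not counted. The 106 are therefore not a result about the lower genes in particular. For 116 of the 123 the D7 mean lay between the D3 and Chronic means. These genes were selected for a wide gap between D3 and Chronic, into which most D7 values could fall. This count therefore does not show a graded fall through D7. Of 36 other probes of called genes, 18 were called in the same direction and 7 had the opposite sign.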

How the data were processed

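Total RNA of rat hippocampus had been hybridized to CodeLink Rat Whole Genome arrays, 1 per rat. According to the authors, arrays were scanned, read with GenePix Pro and normalized with the CodeLink software. The deposited normalized intensity is the background-subtracted spot intensity divided by 1 constant per array, on a linear scale, so that the median spot lies near 1. The series value table holds the same values. Here, gene spots flagged good or low were kept (0.699% of spots had another flag and were set to missing), raised to a floor at the percentile 1 of each array and log2-transformed. Probes with at least 3 values per pilocarpine group and 2 in Control entered a limma fit (version 3.58.1, R 4.3.3) of all 18 arrays in 4 groups, with an intensity trend, and the p-values of the contrast were adjusted over 33800 probes (Benjamini-Hochberg). The call was an adjusted p under 0.05 and at least 2-fold. The probe with the highest mean stood for a gene. Where all spots of the lower group were flagged low, the fold is a bound against the lowest good spot of each array. The script was tested on simulated data. Gene names came from the platform annotation and RefSeq, and 16739 probes have none here. The 44 gene lists (955 genes, 823 measured), the groups and the rules were chosen with earlier results of these data known. Genes named were the 15 largest called rises and falls, up to 6 called genes per list or else the 2 largest changes, the genes singled out by the study and reference genes. The number of arrays limits the precision. No batch was fitted. Alternatives left out arrays or changed the normalization, filter, floor, prior, fold limit or test. A called gene and its list are not reported here.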

Additional observations from a re-analysis of the deposited data

Results flagged for a closer look

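Within D3 and Chronic, a sample was looked at again where its gap to the nearest other array took most of the group's range (Dixon's test at 95%). Of 324 groups of arrays tested, 118 genes and 44 lists in each group, 20 had such an array, and chance alone gives about 1 in 20. Missing values left some groups with 4 arrays. Chronic replicate 41 stood apart for Ifit3 (1.93, others 0.32 to 0.70) and the mean level of synaptic vesicle and postsynaptic (3.24, others 3.55 to 3.67). Chronic replicate 45 stood apart for Rrm2 (-1.29, others -2.54 to -2.22), Fbln2 (5.09, others 2.34 to 2.62), Cd44 (3.15, others 1.06 to 1.18), Plin2 (2.86, others 1.62 to 1.94), Nqo1 (0.61, others 0.90 to 1.01) and Tnmd (-1.98, others -1.04 to -0.75). D3 replicate 11 stood apart for Bmp4 (-0.0164, others 0.72 to 1.01), Gria1 (-2.75, others -4.31 to -3.95) and Bdnf (-4.73, others -1.83 to -1.10). That Bdnf value is the floor of the array. D3 replicate 12 stood apart for Ndufv2 (3.19, others 2.91 to 2.99), Il1r2 (-4.63, others -2.69 to -2.19) and Camk2a (3.20, others 4.27 to 4.60). D3 replicate 13 stood apart for Mcm5 (0.072, others 0.59 to 0.77), Rplp0 (5.88, others 6.04 to 6.08) and Ifit3 (-1.15, others -0.66 to -0.61). D3 replicate 15 stood apart for Atp5f1a (4.57, others 4.78 to 4.86), Gapdh (6.41, others 6.58 to 6.61) and Bmp3 (-2.77, others -0.88 to -0.58). The values are log2 normalized intensities. For Fbln2, Cd44 and Plin2 the differences without Chronic replicate 45 were -2.83, -1.88 and -1.23.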

How the results depend on the processing

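No paired analysis was possible because no replicate number occurs in more than 1 group. Of 53 named called genes, 25 kept their call under every alternative run and 32 with any array left out, and no named result reversed. With each array left out in turn, 35 to 78 probes were higher and 140 to 241 lower, with 35 higher without Chronic replicate 41 or 42 and 41 without D3 replicate 12. Higher calls numbered 35 with quantile normalization, 39 with probes flagged good on at least 5 of the 10 arrays, 15 with only good spots, 26 with the methods' t-test after Benjamini-Hochberg, 320 with that test unadjusted and 273 with no fold limit. Lower calls numbered 116 with only good spots and 648 with no fold limit. The cause was not tested, except that fewer spots or no fold limit changes what can be called. The other alternatives gave counts within 1.5 times. Calls per list, and genes called only under an alternative, were counted after seeing the data. Correction by normexp was not run, since the deposited intensities are already background-subtracted, nor was a slide or scan date block, since no such date was used. Of the 66 higher probes, 8 were flagged low on every array of both groups.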
